A study of Mus musculus with 85 samples.

Results

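Small RNA profiles of 27 mouse hearts are described here, taken from a series of 85 heart libraries. The animals came from the HMDP (Hybrid Mouse Diversity Panel), which brings together inbred mouse strains of differing genotype. The 27 carry the library numbers 1 to 10, 15 to 18, 20, 21 and 49 to 59. They were chosen by their own miRNA profile, since they were the libraries with the highest first principal component scores of log2 CPM, counts scaled to a common library size, so no difference between them and the other 58 libraries was tested. All 85 hearts belonged to the same condition: females fed chow for 8 weeks and a diet rich in fat and sucrose (HF/HS) for a further 8 weeks, 16 weeks old, with 1 library per heart and no untreated group. The strain of each animal was not used here, so differences between hearts can hold genotype, animal and library preparation, which cannot be told apart, as fewer cells of a type and less RNA per cell cannot be told apart in whole tissue.

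The 27 libraries fall into 2 runs of numbers, named early (16 libraries, numbers 1 to 21, from animals numbered 115 to 645) and late (11 libraries, numbers 49 to 59, from animals numbered 1069 to 1181). The labels give the numbers but do not say that they mark a preparation or sequencing batch. The counts summed to between 5442 and 15436 per early library (median 8493.5) and to between 7472 and 19245 per late library (median 15496), beside 1457 to 30202 in the other 58. With a floor of 3 counts, a miRNA under a share of 0.0156% in the deepest and 0.0551% in the shallowest of the 27 could not be told from absent. Of 1977 listed rows, 445 had a count in these hearts and 71 had a mean of 10 or more counts, and those 71 held 97.1% of all counts. The mean was 10.1 counts for miR-128-3p, just inside the limit, and 9.30 for miR-10a-5p, just outside it. Between pairs of the 27 libraries the chi-square per degree of freedom was at least 1.36, with a median of 5.40 over 351 pairs. Whether the closest pairs differed beyond sampling noise was not tested.

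The component that chose the libraries was computed on 50 rows over all 85 libraries, with miR-27b left out, and held 75.3% of the variance against 3.83% for the next component. Scores ran from 3.19 to 9.67 in the early libraries (median 6.27), from 2.23 to 5.85 in the late libraries (median 4.84), and from -4.86 to 1.201 in the other 58. Just inside the set were libraries 59 (2.23) and 58 (2.35), and just outside it were libraries 14 (1.201) and 11 (-0.69). Libraries 9 (9.67) and 18 (9.43) stood highest, and results that rest on them are given with and without them where such fits were made. Within the late run the last 3 numbers had the 3 lowest scores, 3.66, 2.35 and 2.23 in libraries 57, 58 and 59, while library 51 had the highest, 5.85. Libraries 11 to 14 and 19, whose numbers lie between those of the early run, were not in the set.

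**Figure D1:**
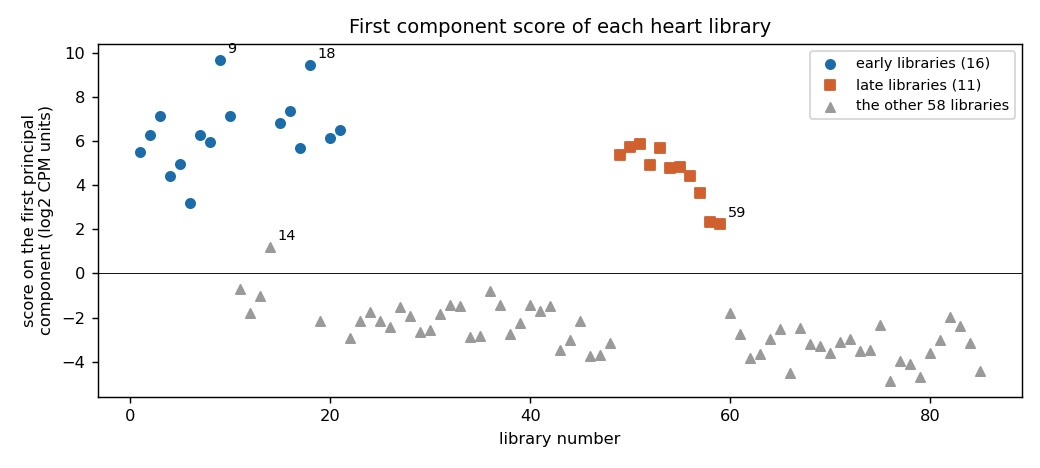
First principal component score of log2 CPM (vertical axis, log2 CPM units) against library number (horizontal axis), with 1 point per heart library. The 16 early libraries lie between 3.19 and 9.67 and the 11 late libraries between 2.23 and 5.85, and the other 58 lie at 1.201 or lower, by the choice of the set.

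MicroRNAs are short RNAs cut from hairpin precursors that guide Argonaute proteins to partly complementary messenger RNAs and lower their stability or translation. Target choice rests mainly on the seed, bases 2 to 8 from the 5′ end, so miRNAs that share a seed form a family. Heart muscle is known for high levels of the muscle miRNAs miR-1 and miR-133, and for miR-208a and miR-499, which lie in introns of myosin heavy chain genes.

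Mature sequences were found in the RefSeq table (GRCm38.p6) for 57 of the 71 rows. The sequences below carry the results that follow: the let-7 and miR-125 rows, which led the co-variation, and the miR-126 arms and other rows that differed between hearts or runs. Capitals mark the seed.
let-7a-5p: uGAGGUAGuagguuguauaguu
let-7b-5p: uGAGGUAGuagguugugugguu
let-7c-5p: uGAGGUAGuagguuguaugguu
let-7f-5p: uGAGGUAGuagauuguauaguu
miR-125a-5p: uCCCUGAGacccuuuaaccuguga
miR-125b-5p: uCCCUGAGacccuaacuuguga
miR-126a-3p: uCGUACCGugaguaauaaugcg
miR-126b-3p: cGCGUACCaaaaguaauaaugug
miR-22-3p: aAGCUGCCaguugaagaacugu
miR-21a-5p: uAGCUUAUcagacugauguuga
miR-208a-3p: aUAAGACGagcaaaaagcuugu
miR-499-5p: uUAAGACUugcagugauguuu
miR-142a-3p: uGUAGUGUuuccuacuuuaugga
miR-30e-5p: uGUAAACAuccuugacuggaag
miR-30e-3p: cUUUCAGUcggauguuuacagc

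On GRCm38, the let-7c and let-7b copies in the table are neighbours at chr15:85706616-85706637 and chr15:85707325-85707346, in exons of the noncoding transcript Lncppara. The let-7a and let-7f copies lie together at chr13:48538239-48538260 and chr13:48537889-48537910, in an exon of the noncoding transcript 6720427I07Rik. MiR-126a-3p lies at chr2:26591402-26591423 in an exon of Egfl7, an endothelial gene, and miR-126b-3p at chr2:26591363-26591385 on the opposite strand. Exon here means an exon of any annotated transcript of the gene, and the same bases can be intronic in its other transcripts. MiR-22-3p lies at chr11:75463772-75463793 in an exon of Mir22hg and of Tlcd2, miR-21a-5p at chr11:86584120-86584141 in a UTR of Vmp1, and miR-142a-3p at chr11:87756903-87756925 in an intron of Mir142hg. MiR-208a-3p lies at chr14:54949072-54949093 in an intron of Myh6, and miR-499-5p at chr2:155622893-155622913 in an intron of Myh7b. Both miR-30e arms lie in an intron of Nfyc, at chr4:120772660-120772681 for the 5p arm and chr4:120772618-120772639 for the 3p arm. Several let-7 and miR-125 members have further genomic copies that give the same mature sequence. Among the 57 rows with a sequence, seeds shared by 2 or more rows formed 10 families with 30 rows, of which let-7 (GAGGUAG, 8 rows) was the largest.

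The 27 hearts carried the profile of heart muscle. MiR-1b-5p held a pooled 15.1% of the counts, miR-1a-3p 13.4%, miR-133a-3p 7.43%, let-7f-5p 6.76% and miR-126a-3p, an endothelial miRNA, 5.30%. The first 5 rows held 48.04% of the counts and the first 15 held 74.1%. In the other 58 libraries the same numbers of leading rows held 57.98% and 78.3%, and miR-1b-5p alone held 24.5%. The next ranks among the 27 were taken by miR-143-3p (3.57%), a smooth muscle miRNA, let-7c-5p (3.47%), let-7a-5p (3.25%), miR-125b-5p (2.92%) and miR-29a-3p (2.63%).

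MiR-1a-3p and miR-1b-5p are annotated on opposite strands of the same locus, and the strand setting of the counting is not given in the sources used here, so their counts cannot be told apart with certainty. Their ratio, miR-1b-5p over miR-1a-3p, lay between 0.904 and 1.23 in the early libraries and between 0.982 and 1.35 in the late libraries. Together they took between 8.82% and 37.97% of an early library (median 24.98%) and between 26.3% and 40.99% of a late library (median 30.4%). The lowest values were those of libraries 18 and 9, and the runs overlapped.

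The order of neighbours in the ranking was often not stable from heart to heart. MiR-1b-5p had more counts than miR-1a-3p in 21 of 27 libraries, and miR-133a-3p had more than let-7f-5p in 15 of 27, with a mean difference of 0.691 percentage points ± 2.21 (SD, n = 27). MiR-126a-3p was above miR-143-3p in 26 of 27 libraries, the clearest step among the first 15. MiR-143-3p and let-7c-5p held their order in 15 of 27, miR-16-5p and miR-30c-5p in 15 of 27, and miR-126b-3p and miR-26a-5p in 14 of 27. Those neighbours did not differ beyond their spread.

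**Figure D2:**
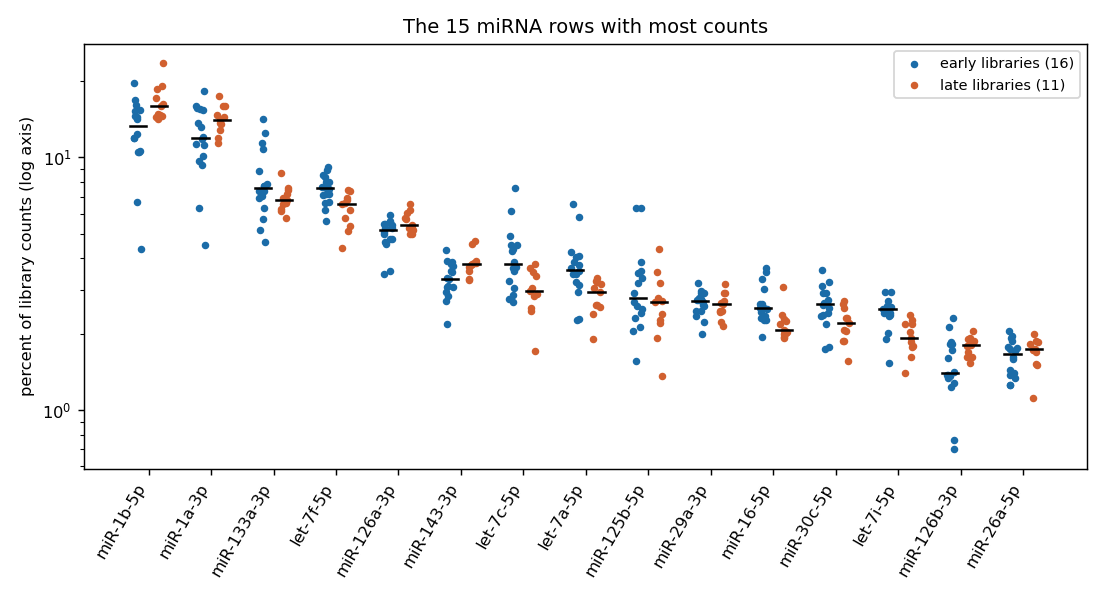
Share of each library's counts (vertical axis, percent, log axis) for the 15 rows with most counts, with 1 point per library and a black line at each run's median. MiR-1b-5p had a median of 13.3% in the 16 early and 16.0% in the 11 late libraries, and the runs overlapped for all 15 rows.

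The let-7 family, whose members slow cell proliferation and mark differentiated tissue, took a large part of these libraries. Its 8 rows summed to between 14.7% and 28.7% of an early library (median 21.5%) and to between 11.3% and 19.7% of a late library (median 17.7%). In the other 58 the sum lay between 5.21% and 11.5% (median 7.14%). As these libraries were chosen on this profile, the gap of the medians is a description. Let-7c-5p ranked 7 here and 21 there, miR-125b-5p 9 and 23, and miR-133a-3p 3 and 7. In the opposite direction, miR-142a-3p ranked 41 here and 13 there, miR-101a-3p 58 and 18, miR-208a-3p 56 and 22, and miR-30e-5p 17 and 4. On mean log2 CPM scaled by library totals, 50 of the 71 rows were higher in the 27 libraries, with a median difference of 0.70, and with TMM scaling 38 of 71, with a median of 0.04, so the direction of a single row near these medians depends on the scaling. The largest differences were -2.95 for miR-142a-3p, a leukocyte miRNA, and 1.88 for let-7b-5p, at 10.96 ± 0.80 against 13.92 ± 0.58 and 13.56 ± 0.50 against 11.67 ± 0.39 (mean log2 CPM ± SD, n = 27 and 58).

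For miR-30e, miR-30a and miR-378a the pooled ratio between the arms of a precursor also differed in level between these libraries and the others. The 5p arm of miR-30e had 10.5 times the counts of its 3p arm over the early libraries, 18.5 times over the late libraries and 77.5 times over the other 58. For miR-30a the same pooled ratios were 11.9, 22.4 and 42.5, and for the 3p over the 5p arm of miR-378a they were 5.30, 6.82 and 9.77. The ratio of miR-199a-3p to miR-199a-5p was 9.25, 10.7 and 9.49, and that of miR-126a-3p to miR-126a-5p was 10.6, 10.8 and 9.71. The less abundant arms of miR-30e, miR-30a and miR-378a had means of only 12.0, 11.6 and 11.4 counts in the 27 libraries. The miR-30e ratio of single libraries ran from 5.42 to 24.5 early, from 10.4 to 27.9 late and from 21.5 to 371 in the others, so early and late overlapped. These ratios were not tested.

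Lists of cell type miRNAs were read to check the tissue. The cardiomyocyte list (miR-1a-3p, miR-133a-3p, miR-208a-3p, miR-208b-3p and miR-499-5p) summed to between 17.6% and 24.2% of a library, with 4 of its 5 members past the limit of 10 counts. MiR-208b-3p, which lies in the beta myosin gene Myh7, had 6 counts in all. The endothelial list held 3.73% to 7.12%, the smooth muscle list 2.87% to 5.26%, the fibroblast list 1.01% to 2.03%, the leukocyte list 0.552% to 1.22%, and the erythroid list 0.165% to 1.04%. The neuronal miR-124-3p and the skeletal muscle miR-206-3p had 0 counts in all 27 libraries, which allows a share of up to 0.0156% to 0.0551% by library. The other member of the neuron list, miR-9-5p, had 118 counts in all, a count in 25 of 27 libraries and a highest count of 11. The hepatocyte miR-122-5p had a count in 25 of 27 libraries, with a median of 5 and a highest count of 46.

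Levels of most miRNAs varied between hearts by more than counting error. A chi-square test of each row's counts against its pooled share passed the threshold for 60 of the 71 rows (84.5% of the rows tested), with a median chi-square per degree of freedom of 3.89 and a highest value of 171. The spread beyond counting is given as a coefficient of variation (CV), the square root of edgeR's dispersion. Its median was 23.3%, and 23 rows were over 30%. The median was 21.3% when each run kept its own mean, 20.3% among the early and 15.1% among the late libraries, and 17.4% for the same rows in the other 58. The CV was larger among the early libraries than among the late ones for 48 of 71 rows. The early CVs include libraries 9 and 18 and were not computed without them, so their part in this difference was not tested. Without libraries 9 and 18, 53 of the 69 rows then past the limit of 10 counts passed.

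MiR-142a-3p, made in blood cells, had the largest CV over the 27 libraries, 57.3%. Its share ran from 0.0447% to 0.415% in the early libraries (median 0.145%) and from 0.165% to 0.769% in the late libraries (median 0.234%). The highest value was that of library 59, which also had the lowest component score. Without library 59 the CV of miR-142a-3p was 46.02%, and when each run kept its own mean it was 49.5%. MiR-451a, an erythroid miRNA, followed at 55.3%, with shares from 0.0387% to 0.429% (median 0.164%) over the 27 hearts. Its CV was at least 51.5% whichever library was left out, and 53.8% when each run kept its own mean. The first rank of miR-142a-3p was thus not kept in either setting. The other erythroid member, miR-486a-5p, whose row has the same counts as miR-486b-5p in every library, had a CV of 51.2%. Its share was 0.610% in library 9 and 0.842% in library 18, against 0.0610% to 0.256% in the other early libraries, and its CV was 35.9% without library 18. These 2 erythroid members did not move together, with r = 0.06 between miR-451a and miR-486a-5p within runs (Spearman's rho = 0.09, permutation p = 0.773 and 0.644, adjusted p = 0.883 for r). MiR-144-3p, also on the erythroid list, had 14 counts in all, with a count in 8 of 27 libraries, and was not tested.

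MiR-101a-3p had a CV of 47.5%, or 30.1% without library 59. MiR-125a-5p, at a mean of 75.9 counts, had a CV of 46.96%, and its share was 2.002% and 2.08% in libraries 9 and 18 against 0.290% to 1.12% in the other early libraries. MiR-34a-5p, a target of p53 linked to ageing of the heart, had a CV of 45.997% with shares from 0.0559% to 0.380%, and its level did not follow the component score within runs (r = 0.12). MiR-30a-3p had a CV of 45.8%.

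The abundant muscle rows were not among the steadiest. MiR-1b-5p and miR-1a-3p, with means of 1729 and 1531 counts, had shares from 4.33% to 23.6% and from 4.49% to 18.3%, and the CV of miR-1a-3p was 32.05%. Let-7f-5p, at a mean of 772 counts, had a CV of 13.1%. MiR-29a-3p, which lowers collagen messages, had a CV of 9.52% and shares from 1.9998% to 3.19%, and let-7g-5p had 9.66%. MiR-27b-3p, at a mean of 99.7 counts, had a CV of 6.50% and shares from 0.573% to 1.16%, and did not pass the test (chi-square per degree of freedom 1.46, adjusted p = 0.0706). The other rows with the smallest CVs were miR-378a-5p (8.77%), miR-3074-5p (8.38%), miR-146a-5p (6.48%), miR-27a-3p (5.58%) and miR-322-5p, whose estimate was at its lower bound. These small CVs were not precise. That of miR-27b-3p was 2.43% without library 52 and 3.54% with DESeq2's size factors. Those of miR-378a-5p, miR-3074-5p, miR-146a-5p and miR-27a-3p fell to the lower bound, 0.988%, without libraries 5, 9, 1 and 2 in that order. Of the 11 rows that did not pass, 9 had a mean under 20 counts, where the CV of counting in a library was 23.8% or more. Rows of that depth could still pass with a smaller CV between hearts, such as let-7e-5p (mean 18.3 counts, CV 17.7%, adjusted p = 0.0194).

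**Figure D3:**
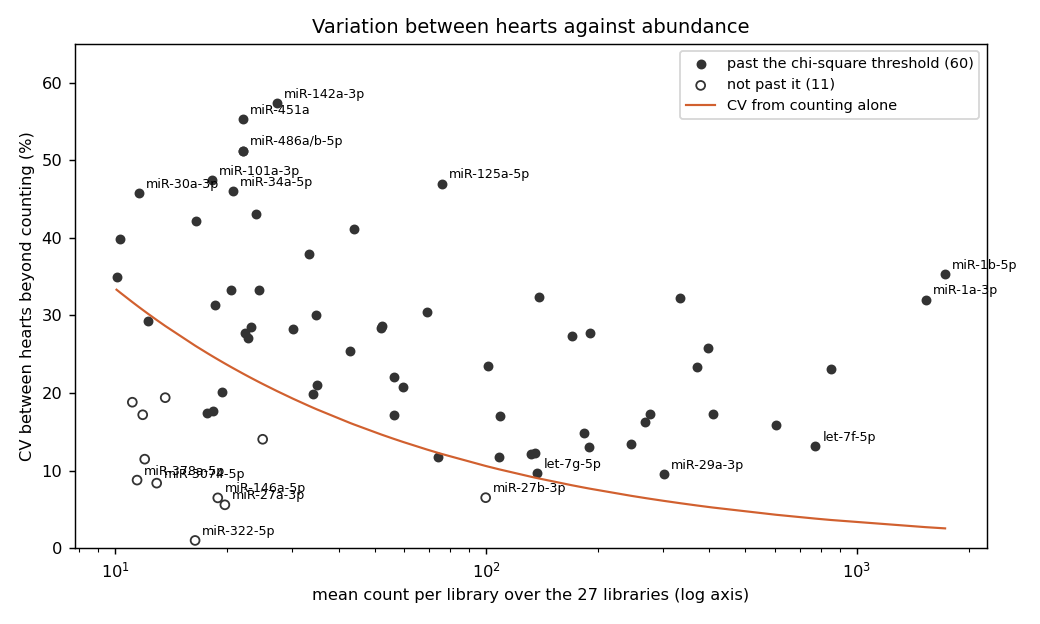
CV between hearts beyond counting (vertical axis, percent) against the mean count per library (horizontal axis, log axis) for the 71 rows over the 27 libraries; filled points passed the chi-square test (60) and open points did not (11), and the line is the CV that counting alone gives. MiR-142a-3p stands highest at 57.3% (46.02% without library 59), miR-1a-3p lies at 32.05% despite 1531 mean counts, and miR-27b-3p lies at 6.50%.

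The early and late libraries were compared as a check on library order. With edgeR's quasi-likelihood test, 18 of 71 rows differed (25.4% of the rows tested): 10 were higher in the late libraries (14.1%) and 8 were lower (11.3%). For no row did the runs separate fully (0 of 71). Differences are log2 late minus early ± SE with the adjusted p of that test, and shares are percent of a library's counts.

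MiR-22-3p, a miRNA abundant in cardiac and skeletal muscle, differed most. Its share ran from 0.0671% to 0.221% in the early libraries (median 0.143%) and from 0.187% to 0.452% in the late libraries (median 0.245%). All 11 late libraries were above the early median and 8 were above the highest early library on the TMM scale. The difference was 1.06 ± 0.18 (adjusted p = 6.62e-05), and it passed in all 10 alternative settings (adjusted p from 2.14e-06 to 0.00884) and in all 27 fits that left out a library. The level of miR-22-3p did not follow the component score within runs (r = -0.08), and with that score as a covariate the difference was 1.07.

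The intronic cardiomyocyte miRNAs were higher in the late libraries. MiR-208a-3p, from the alpha myosin gene, had shares from 0.0546% to 0.195% early (median 0.119%) and from 0.147% to 0.290% late (median 0.177%), with a difference of 0.77 ± 0.17 (adjusted p = 0.00129). MiR-499-5p had shares from 0.127% to 0.649% early (median 0.266%) and from 0.295% to 0.849% late (median 0.418%), with a difference of 0.64 ± 0.20 (adjusted p = 0.0189, or 0.0947 without library 58). All 11 late libraries lay above the early median for both. The other cardiomyocyte members did not pass: the values were 0.29 ± 0.17 for miR-1a-3p (adjusted p = 0.188) and -0.18 ± 0.13 for miR-133a-3p (adjusted p = 0.274). Of the 4 members tested, 2 were higher and 0 lower, with a median difference of 0.47. Over all 71 rows 10 were higher (14.1%) and 8 lower (11.3%), with a median of 0.00.

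MiR-21a-5p, which rises in the stressed heart and in fibroblasts, had shares from 0.0910% to 0.451% early (median 0.214%) and from 0.260% to 0.446% late (median 0.361%). The difference was 0.80 ± 0.18 (adjusted p = 0.00129), with all 11 late libraries above the early median and 1 above the highest early library. In the list of heart stress miRNAs, 2 of 9 members were higher, miR-21a-5p and miR-208a-3p, and 0 were lower, with a median of 0.24, beside 10 of 71 rows higher (14.1%) and a median of 0.00 over all rows. The values were 0.06 ± 0.07 for miR-29a-3p (adjusted p = 0.537) and 0.00 ± 0.07 for miR-27b-3p (adjusted p = 0.9998).

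Of the 4 leukocyte members tested, miR-142a-3p was higher in the late libraries by 0.90 ± 0.27 (adjusted p = 0.0158), but by 0.60 without library 59 (adjusted p = 0.0707). The values of the others were 0.26 ± 0.17 for miR-223-3p, -0.53 ± 0.24 for miR-150-5p and -0.10 ± 0.15 for miR-146a-5p, and none of these passed. The summed leukocyte list had medians of 0.760% early and 0.785% late. MiR-143-3p of the smooth muscle list was higher by 0.27 ± 0.09 (adjusted p = 0.0234), a call that was kept in 16 of 27 fits that left out a library and in 3 of 10 alternatives, beside 0.00 ± 0.14 for miR-145a-5p of the same cluster. No member of the endothelial, fibroblast or erythroid lists passed, with medians of 0.22, -0.23 and 0.08 over 2 members each. Over all rows 18 of 71 passed (25.4%).

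The remaining rows that were higher late were miR-101a-3p (0.81 ± 0.24, or 0.50 and adjusted p = 0.0659 without library 59), miR-378b (0.70 ± 0.15), miR-99a-5p (0.53 ± 0.15) and miR-30e-5p (0.47 ± 0.12). MiR-378b and miR-99a-5p passed in all 10 alternatives. The rows lower late were led by miR-30a-3p (-0.86 ± 0.25, adjusted p = 0.0132), miR-125a-5p (-0.66 ± 0.23, adjusted p = 0.0253), miR-25-3p (-0.66 ± 0.19, adjusted p = 0.0121) and miR-191-5p (-0.53 ± 0.18, adjusted p = 0.0234). The other 4 were let-7 rows. Let-7b-5p fell by 0.50 ± 0.15, let-7c-5p by 0.39 ± 0.13, let-7a-5p by 0.35 ± 0.12 and let-7i-5p by 0.24 ± 0.08 on the log2 scale, and all 11 late libraries lay below the early median for let-7b-5p and let-7a-5p. The calls of let-7a-5p, let-7c-5p and let-7i-5p were lost without library 2, which left 5 rows lower late. The values of the other let-7 rows were -0.20 for let-7f-5p, -0.30 for let-7e-5p, -0.04 for let-7d-5p and 0.00 for let-7g-5p.

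Depth and the component score moved with the run. With the log2 library total as a covariate, 4 rows passed, miR-22-3p, miR-378b, miR-21a-5p and miR-99a-5p, all higher late. The 14 rows that no longer passed kept their direction, at 0.518 to 1.17 times their difference without the covariate (median 0.893), while the median SE of the 18 rows went from 0.17 to 0.25. The difference was then -0.65 for miR-25-3p, -0.57 for let-7b-5p and 0.68 for miR-208a-3p, but 0.42 for miR-101a-3p. With the component score as a covariate, 11 rows passed, and 4 of the 18 remained: miR-22-3p, miR-378b, miR-99a-5p and miR-30a-3p. The difference of miR-125a-5p then turned to 0.16 (adjusted p = 0.448). The score was computed from the same counts, so this fit also takes out what the rows share, and the part of depth and of the score in the run differences was not tested further.

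**Figure D4:**
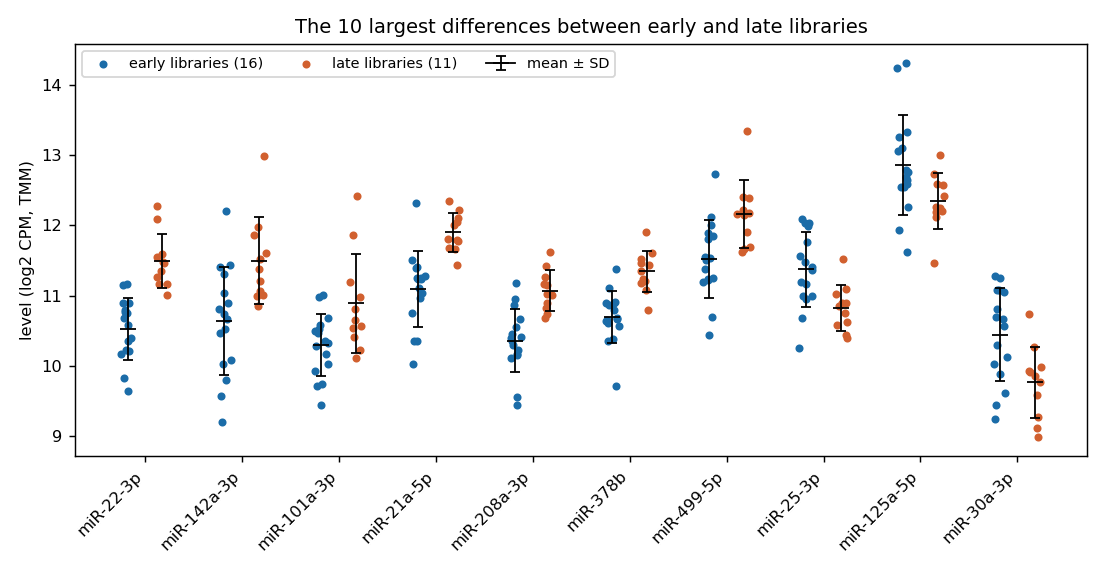
Level (vertical axis, log2 CPM with TMM scaling) of the 10 rows with the largest differences that passed the test, with 1 point per library and the mean ± SD of the 16 early and 11 late libraries. MiR-22-3p was higher late by 1.06 and miR-30a-3p lower by 0.86 on the log2 scale, and the runs overlapped in each row.

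No trend with library number was found within runs. With a slope shared by both runs, 0 of 71 rows passed edgeR's test, with a smallest adjusted p of 0.276, and 11 rows had an unadjusted p under 0.05. DESeq2's Wald test called 0 rows as well, with 12 under 0.05 unadjusted. The median slope was 0.12 log2 units per 10 libraries in absolute size with a median SE of 0.15. The largest slope, 0.62 ± 0.25 (SE) for miR-486a-5p, did not pass either, so slopes well above the median could have been missed. Slopes of the late run alone, where the component score was lowest in the last 3 libraries, were not tested.

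Levels of many miRNAs rose and fell together across hearts, in 2 opposed sets. With the run means removed, 435 of 2485 pairs of rows were correlated (17.5% of the pairs tested), 215 positively and 220 negatively, by a permutation test within runs over 27 libraries. The first set held let-7a, let-7b, let-7c, let-7d and let-7e, both miR-125 rows, miR-133a-3p and the miR-486 rows. The opposed set held the miR-1 and miR-126 rows, miR-30e-5p and miR-21a-5p. Let-7b-5p, miR-125a-5p and miR-1b-5p each had 32 partners, and 10 rows, miR-29a-3p, miR-27b-3p and miR-223-3p among them, had none. Within runs the component score had an r of 0.90 with miR-125b-5p and of -0.87 with miR-1b-5p.

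The number of calls depended on libraries 9 and 18 and on the component that chose the libraries, while the signs mostly did not depend on those libraries. Without those 2 libraries 54 of 2346 pairs passed, 53 of them among the 435, while 419 of the 420 pairs of the 435 that still had both rows kept their sign. With the component score removed, 11 pairs passed, 8 of them among the 435. The early libraries alone gave 359 pairs and the late libraries alone gave 4, and 388 of the 435 had the same sign in both runs. Spearman's rho gave 207 pairs. In libraries 9 and 18 miR-1b-5p held 6.67% and 4.33%, against 10.6% to 19.7% in the other early libraries, and let-7b-5p held 2.86% and 3.04% against 0.878% to 1.86%. MiR-125b-5p held 6.33% and 6.30% there, against 1.56% to 3.87%, and these ranges did not overlap with either library.

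The closest pairs were rows that can share reads. The miR-486 rows have identical counts (r = 1), and the miR-199a-3p and miR-199b-3p rows, whose mature sequence is the same, had r = 0.99. MiR-1a-3p and miR-1b-5p had r = 0.97, and 0.93 without libraries 9 and 18. MiR-126b-3p had r = 0.91 with miR-126a-5p, which overlaps it on the opposite strand, and 0.81 with miR-126a-3p. The exception was miR-24-3p and miR-3074-5p, opposite strands of the same hairpin, at r = -0.01 (p = 0.975), where the second has a mean of 12.9 counts.

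Setting aside rows of identical sequence and on opposite strands of a locus, let-7b-5p and let-7c-5p, whose hairpins lie 621 bases apart, were closest (r = 0.91, rho = 0.81, permutation p = 1e-05 for both, the smallest these permutations can give, adjusted p = 0.000621 for r and 0.00207 for rho). Their r was 0.93 in the early and 0.85 in the late libraries, 0.83 without libraries 9 and 18 when the rest were scaled anew, 0.81 without them on the original scaling (they were the 2 farthest from the median of let-7b-5p), and 0.70 with the component score removed. The log2 ratio of their counts had an SD of 0.17 within runs, against 0.15 from counting alone. MiR-125a-5p and miR-125b-5p, from different chromosomes and with the same seed, followed (r = 0.90, rho = 0.84, p = 1e-05, adjusted p = 0.000621), with 0.91 in both runs, 0.80 without the 2 farthest libraries and 0.53 with the score removed. Let-7b-5p had r = 0.88 with both miR-125b-5p and let-7a-5p, and these were 0.78 and 0.73 without libraries 9 and 18.

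Over all 28 pairs within the let-7 family the median r was 0.58, with 18 called. The 37 pairs that share a seed in the sequence table and no locus or sequence had a median of 0.47, with 18 called. Most of these 37 pairs, and most of their calls, were let-7 pairs already counted in the 28, so they are not a separate result. Over all 2485 pairs the median was 0.00, with 435 called (17.5%). Pairs within the let-7 family had a median of 0.64 in the early and 0.63 in the late libraries. Without libraries 9 and 18 their median was 0.57, against 0.58 with them, and 11 were called. With the score removed their median was 0.16. The family did not move as a block. Let-7f-5p, its most abundant row, had r = 0.00 with let-7b-5p and 0.24 with let-7c-5p, but 0.57 with let-7i-5p (rho = 0.64). With let-7a-5p, let-7d-5p and let-7e-5p its r was 0.23, 0.05 and 0.25. Without libraries 9 and 18 these were 0.55, 0.32 and 0.48, and none passed the permutation test. In the late libraries alone they were 0.67, 0.13 and 0.92, of which the last passed, and in the early libraries 0.10, 0.02 and 0.01. Let-7f-5p differs from let-7a-5p by G12A, let-7c-5p by A19G, and let-7b-5p by A17G and A19G (base of let-7a first, positions from the 5′ end). The r with the component score was 0.31 for let-7f-5p and 0.55 for let-7g-5p, against 0.85 for let-7c-5p and let-7a-5p and 0.82 for let-7b-5p. The GC content of these sequences was 31.8% for let-7f-5p, 36.4% for let-7a-5p and let-7g-5p, 40.9% for let-7c-5p and 45.5% for let-7b-5p.

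The other seed families were mixed, and their counts stand beside 435 of 2485 pairs called over all rows (17.5%). MiR-148a-3p and miR-152-3p, which share the seed CAGUGCA, had r = 0.60 (rho = 0.48, p = 0.0044, adjusted p = 0.0315), and 0.23 without libraries 9 and 18 (adjusted p = 0.662). The 4 rows with the seed AGCAGCA (miR-15a-5p, miR-16-5p, miR-322-5p and miR-497a-5p) had 0 of 6 pairs called, with r from -0.38 to 0.29. The 5 miR-30 5p rows had a median r of 0.21 with 1 of 10 pairs called. Of the 3 pairs of miR-29 rows 1 was called, miR-29b-3p with miR-29c-3p (r = 0.55, rho = 0.65, p = 0.00282, adjusted p = 0.023), whose hairpins lie 426 bases apart. Without libraries 9 and 18 their r was 0.48 and did not pass (adjusted p = 0.167).

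Neighbours in the genome also varied. Of 24 pairs from the same genomic cluster 7 were called, 6 positively, with a median r of 0.22, beside 435 of 2485 (17.5%) and a median of 0.00 over all pairs. Let-7c-5p and miR-125b-5p had r = 0.85, let-7a-5p and let-7d-5p 0.79, and let-7e-5p and miR-125a-5p 0.73, and without libraries 9 and 18 these were 0.73, 0.58 and 0.53, of which the first passed (adjusted p = 0.0127). The smooth muscle pair miR-143-3p and miR-145a-5p had r = -0.11 (rho = -0.17, p = 0.56, adjusted p = 0.751). Let-7a-5p and let-7f-5p had r = 0.23, or 0.55 without libraries 9 and 18, and did not pass in either fit. MiR-1a-3p and miR-133a-3p, which are made from shared muscle transcripts, had r = -0.79 (rho = -0.53, p = 5e-05 and 0.0108, adjusted p = 0.00177 for r). Their r was -0.55 without libraries 9 and 18 (adjusted p = 0.153), in which miR-133a-3p held 12.5% and 14.2% against 4.63% to 11.4% in the other early libraries. Of the 5 pairs of arms of 1 precursor 1 was called, miR-126a-3p with miR-126a-5p (r = 0.70, rho = 0.54, p = 0.00033, adjusted p = 0.00513), and r was 0.43 without libraries 9 and 18 (adjusted p = 0.331).

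The 6 most negative pairs were let-7 or miR-125 rows against miR-1 rows. Let-7c-5p and miR-1b-5p had r = -0.88 (rho = -0.80, p = 1e-05 and 2e-05, adjusted p = 0.000621 for r), with -0.88 in the early and -0.91 in the late libraries. It was -0.65 without libraries 9 and 18 (adjusted p = 0.0265), -0.74 without them on the original scaling (they were the 2 farthest from the median of let-7c-5p), and -0.55 with the score removed (adjusted p = 0.146). Counts of let-7c-5p were between 0.136 and 1.75 times those of miR-1b-5p in the early libraries (median 0.280) and between 0.0731 and 0.262 times in the late libraries (median 0.182). The runs overlapped, and library 18 was the only library in which let-7c-5p had more counts than miR-1b-5p. Let-7b-5p with miR-1b-5p and with miR-1a-3p had r = -0.88 and -0.87, and miR-125a-5p with the same rows had -0.86 and -0.85. Without libraries 9 and 18 the r of let-7b-5p and let-7c-5p with miR-1a-3p was -0.62 and -0.52, and neither passed (adjusted p = 0.0586 and 0.105).

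**Figure D5:**
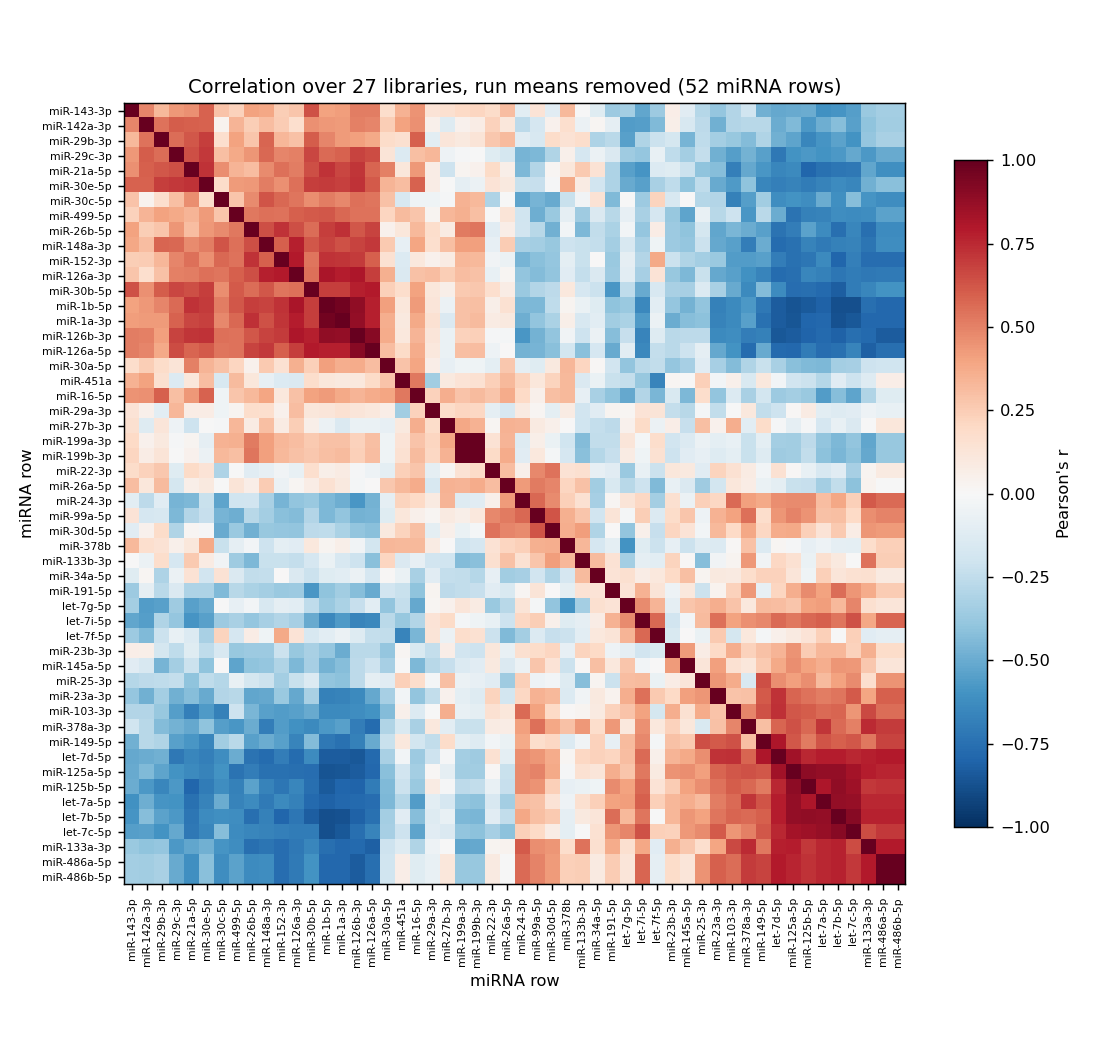
Pearson's r between 52 rows with a mean of 20 or more counts (both axes, ordered by average-linkage clustering of 1 minus r) over 27 libraries with run means removed; red is positive and blue negative. The let-7, miR-125, miR-133a and miR-486 rows form a block at the lower right, opposed to a block with the miR-1 and miR-126 rows, and rows such as miR-29a-3p and miR-27b-3p lie outside both.

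Base composition moved with these patterns, as a description over 56 miRNAs with a mature sequence, identical sequences counted once, which share libraries and families. Abundant rows without a sequence in the RefSeq table were left out. Among them were miR-1b-5p, miR-1a-3p and miR-133a-3p, whose r with the component score within runs was -0.87, -0.84 and 0.73. The GC content had r = 0.43 (rho = 0.46) with each row's within-run correlation to the component score and r = -0.43 (rho = -0.42) with the late minus early difference. Without the 8 let-7 rows, a check chosen after their values were seen, these were 0.75 (rho = 0.77) and -0.57 (rho = -0.58) over 48. With the difference between the 27 and the other 58 libraries the r was 0.48, and 0.70 without let-7. GC content had r = -0.07 with the CV. The part of base composition in the run difference and the co-variation was not tested.

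With the component score removed, the pairs that passed outside shared sequences were let-7b with let-7c, let-7d with miR-149-5p, let-7f with miR-152-3p, miR-126a-3p with miR-1b-5p and, negatively, with miR-142a-3p, miR-133a-3p with miR-133b-3p, and miR-26a-5p with miR-99a-5p. Before the removal, let-7f with miR-152-3p (r = 0.38) and miR-133a-3p with miR-133b-3p (r = 0.54) had not passed. Nor had miR-126a-3p with miR-142a-3p, whose r turned from 0.17 to -0.64 with a score computed from the same counts. MiR-133a-3p and miR-133b-3p, near-identical muscle miRNAs from different loci, kept a ratio of 21.1 to 51.4 early and of 26.7 to 51.1 late.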

How the data were processed

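Small RNA libraries of 85 hearts were made by the authors from total RNA (miRNeasy) with the QIAseq miRNA kit and sequenced on a HiSeq. The submitters' processing notes name HISAT2 2.0.6, HTSeq 0.13.5 and mm10. Deposited values are raw counts per mature miRNA, not normalized, with 1 column per library. Trimming, the strand setting and use of molecular identifiers are not given in the sources used here, so errors from counts cover counting error and the spread between libraries.

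The libraries, miRNA lists and tests were chosen with earlier results of these data known. Rows with a mean of 10 or more counts in the 27 libraries were kept (71). Counts were normalized with TMM, and log2 CPM used a prior count of 2. Variation was tested by chi-square with 26 degrees of freedom. The CV is the square root of edgeR 4.0.16 dispersion with a prior df of 0. Runs and trends were tested with edgeR's quasi-likelihood test (R 4.3.3) and DESeq2 1.42.0 as an alternative. Correlations of log2 CPM used 100000 two-sided permutations within runs. P-values were adjusted by the Benjamini-Hochberg method over all rows or pairs tested, with a threshold of 0.05. The p-values of the run and trend tests and of the correlations rest on the spread between these libraries. Those of the chi-square test set the counts against counting error alone. Scripts were tested on simulated data.

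Named miRNAs are the 15 with most counts, the 8 largest and 8 smallest CVs, the 10 largest run differences that passed, the 12 largest and 6 most negative correlations that passed, arms and cluster neighbours, and members of the marker lists. Other rows were named after their values were seen. Tables used pandas 2.3.3, numpy 2.4.6 and scipy 1.17.1 in Python 3.11.15, and plots matplotlib 3.10.9. Sequences and positions are from RefSeq (GRCm38.p6) and gene context from GENCODE.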

Additional observations from a re-analysis of the deposited data

How the results depend on the processing

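The count of 60 of 71 rows varying beyond counting error lay between 50 and 83 under the 7 alternatives, within 1.5 times the main count. The alternatives did not all test the same rows. A filter of 20 counts gave 50 of 52 rows, leaving out libraries 9 and 18 gave 53 of 69, and no filter gave 83 of 445. The share of rows that passed was thus much lower without a filter. The count of 18 rows that differed between runs, 10 higher and 8 lower late, lay between 15 and 23 in 8 of 10 alternatives. It was 4 (4 higher, 0 lower) with the log2 library total as a covariate, where the 14 rows that no longer passed kept their direction at a median of 0.893 times their difference and the median SE went from 0.17 to 0.25. It was 11 (7 higher, 4 lower) with the component score as a covariate, where miR-125a-5p turned from -0.66 to 0.16. DESeq2's Wald test called 22. Leaving out each library gave 16 to 22 rows, 7 to 13 higher and 5 to 11 lower, the lowest of these without library 2. The trend within runs had 0 calls in all 8 fits. The 435 correlated pairs became 207 with Spearman's rho, 4 in the late libraries alone, which are 11, 11 with the component score removed and 54 without libraries 9 and 18, and lay between 359 and 527 in the other 8 alternatives. The causes of these changes were not tested, the fewer libraries of the late run among them. The leave-one-out fits, the component score as a covariate and the fits without libraries 9 and 18 were added after seeing the data. The CV of counting in a library is above 30% for rows with a mean near 10 counts, so their values are the least precise.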
